A study of Mus musculus with 38 samples.

Results

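The genes described are 10 members of the Nodal and bone morphogenetic protein (BMP) signalling system, 10 of the 21938 protein-coding genes of the mouse annotation (GENCODE vM21, GRCm38). They were chosen by name: the ligand Nodal, its co-receptor Tdgf1, the antagonists Lefty1 and Lefty2, the inhibitory Smad7, the ligands Bmp4 and Bmp2, and the BMP targets Id1, Id2 and Id3. Each gene was taken with 5 kb on either side, called its window. ChIP-seq for H3K4me3, H3K27ac, H3K4me1, H3K27me3 and H3K9me3 had been done in mouse embryonic stem cells (the ES-E14TG2a line) grown in serum and LIF and taken undifferentiated, at 0 h. IκBα-WT cells carried a non-targeting scrambled guide RNA, and IκBα-KO cells carried 2 guide RNAs against exon 1 of Nfkbia, the gene of IκBα, so both genotypes had been through CRISPR/Cas9 and the choice of single clones. Each genotype was 3 independent clones, called WT1 to WT3 and KO1 to KO3. This gave 6 libraries a mark and 30 in all, and each library came with its own list of enriched regions, called peaks for H3K4me3 and domains for the other 4 marks. The question was which marks at these genes differed between the genotypes before differentiation.

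Nodal and the activins signal through Smad2 and Smad3, and BMPs through Smad1, Smad5 and Smad8. Nodal needs the co-receptor Tdgf1 (Cripto) and switches on its own antagonists Lefty1 and Lefty2, while BMPs switch on the Id genes, which hold back helix-loop-helix factors of differentiation. In embryonic stem cells Bmp4 with LIF sustains self-renewal, and both ligands later pattern the germ layers. H3K4me3 marks gene starts, H3K4me1 marks enhancers, and H3K27ac marks active enhancers and promoters. H3K27me3 is the Polycomb mark of silent developmental genes, which in these cells often carry H3K4me3 as well.

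Bmp4 held an H3K27me3 domain in 3 of 3 WT and 0 of 3 KO libraries, and its H3K4me3 peaks covered more sequence in every KO library than in any WT library. Id1 had less H3K27me3 and more H3K4me3 sequence in KO. Id2 went the other way for H3K27me3, with 10007 ± 1173 bp in KO against 5980 ± 676 bp in WT (SD, n = 3), and its H3K27ac read density fell by 0.38 on the log2 scale. At the Nodal genes the highest H3K4me3 summits in the windows of Nodal and Tdgf1 fell by 0.59 and 0.70 on the log2 scale. The peaks of Tdgf1 and of Smad7 nonetheless covered more sequence in KO.

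**Figure D1:**
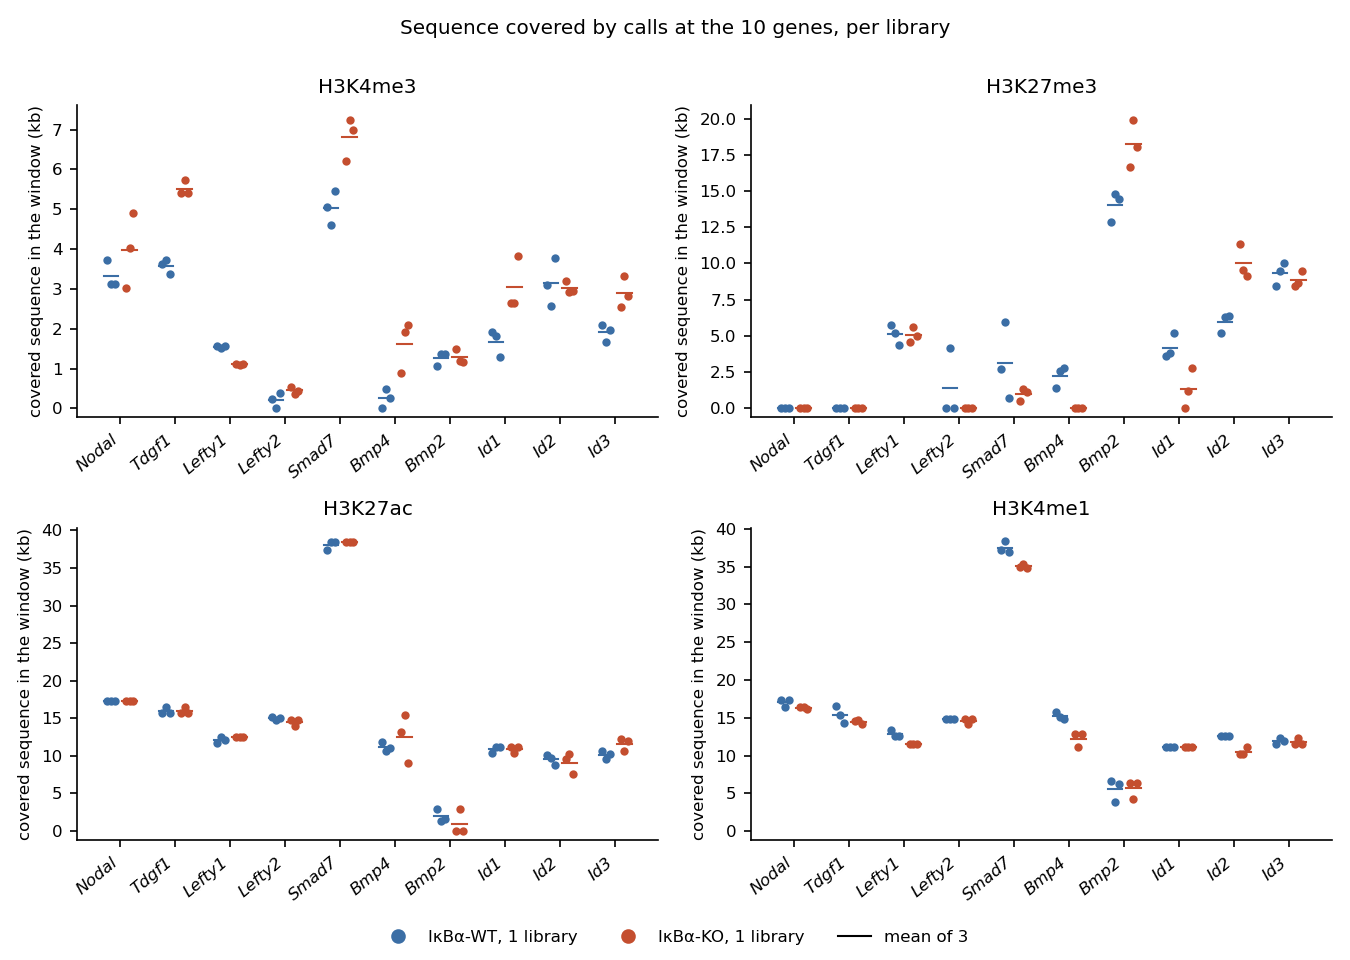
Sequence covered by calls (kb, y axis) in the window of each gene (x axis) for H3K4me3, H3K27ac, H3K4me1 and H3K27me3, with 1 point per library and a bar at the mean of the 3 libraries of each genotype. The H3K27me3 points of Bmp4 lie at 0 in all 3 KO libraries and at 1400 to 2800 bp in the WT libraries.

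Some facts of the whole data set bear on these values. H3K4me3 peaks numbered 21836 to 26806 a library and held no read counts, so H3K4me3 is given by covered sequence and by the fold enrichment at the highest summit. The domains held 22943091 to 28339766 ChIP reads a library for H3K27ac, 34736939 to 35951506 for H3K4me1 and 8910890 to 10938375 for H3K27me3. The H3K27me3 lists covered 214065400 to 258895000 bp in WT and 266624800 to 278201400 bp in KO. The H3K4me3 lists covered 17194041 to 19282859 bp in WT and 19017366 to 22134205 bp in KO. The part of these differences in the values of single genes was not tested. H3K4me3 had a peak in all 6 libraries at 8 of 8 pluripotency markers and 2 of 5 fibroblast markers, but also at 4 of 4 primed epiblast, 4 of 4 mesoderm and 5 of 6 primitive endoderm markers, so H3K4me3 calls alone do not set the cell type. Of the pluripotency markers, 5 of 8 rose in H3K4me3 fold enrichment in KO, where 1348 of all 13533 windows tested rose. At Nfkbia, the targeted gene, H3K4me3 covered 1226, 1168 and 1523 bp in WT and 235, 820 and 1286 bp in KO, and its fold enrichment fell by 1.51 on the log2 scale (limma, adjusted p = 0.00017), which does not read the edit itself.

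Read density means ChIP reads per kb of the called domains that touch a window, scaled between libraries, and was tested with edgeR's quasi-likelihood test. The highest H3K4me3 fold enrichment, centred on the median of each library, was tested with limma. Both p-values were adjusted by Benjamini-Hochberg over every window tested, with a threshold of 0.05. For each mark a genotype had 1 input library, shared by its 3 clones, and H3K27ac and H3K4me1 used the same one. The p-values of fold enrichment, a ratio to input, and of fits with input as an offset therefore leave out the spread of input. Regions were called against that input as well. Covered sequence and the presence or absence of a call in the 3 libraries of a genotype thus rest on 1 input and leave out its spread too. For covered sequence an exact two-sided permutation test of 3 against 3 libraries has 20 assignments and cannot go below p = 0.1, so it cannot pass that threshold and is read beside the share of all windows whose groups also do not overlap. An H3K4me3 change of fold enrichment passed in 20.7% of the 13533 windows tested, and in 2 of the 8 members tested. H3K4me3 sequence was higher in every KO than in every WT library in 24.5% of 15151 windows and lower in 7.25%, against 5 and 1 of the 10 members. Over the 8 members tested the median H3K4me3 change was -0.01 on the log2 scale, beside -0.025 over all windows tested.

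Nodal (ENSMUSG00000037171, chr10:61417972-61425338, plus strand) is the ligand of the branch. Its promoter, from 250 bases before to 50 after the start in RefSeq (GRCm38.p6), is printed with CpG dinucleotides in capitals because the H3K4me3 summit at this gene fell. It holds 5 CpG, against a median of 7 over 32851 RefSeq promoters.
Nodal promoter, chr10:61417722-61418021, plus strand: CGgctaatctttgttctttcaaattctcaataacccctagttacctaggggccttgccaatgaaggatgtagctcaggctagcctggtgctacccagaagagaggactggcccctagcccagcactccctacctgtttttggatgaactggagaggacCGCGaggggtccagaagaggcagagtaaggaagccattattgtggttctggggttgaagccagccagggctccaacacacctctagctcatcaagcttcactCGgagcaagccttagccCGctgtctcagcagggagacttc

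The highest H3K4me3 summit in the Nodal window had a centred fold enrichment of 16.5, 21.8 and 20.4 in WT1 to WT3 and of 14.2, 15.7 and 9.73 in KO1 to KO3. All 3 WT libraries were above all 3 KO libraries, and the value fell by 0.59 on the log2 scale (SE 0.18, limma, adjusted p = 0.028). The call was lost without WT2, WT3, KO1 or KO3, with values between -0.65 and -0.38, the latter without KO3 (adjusted p = 0.14), and without centring (adjusted p = 0.075). The peaks of Nodal covered 3722, 3113 and 3130 bp in WT and 3029, 4016 and 4894 bp in KO, which overlap, so the called sequence did not order the genotypes as the summit did. In the WT libraries, KO1 and KO2 no peak spanned the gene start. The nearest began 220 to 268 bp from it in WT, 249 bp in KO1 and 242 bp in KO2. Only in KO3 did a peak span it, with a width of 258 bp. The Nodal window was covered along its whole 17367 bp by H3K27ac in all 6 libraries, and H3K27ac read density was 106 to 122 in WT and 113 to 118 in KO. No H3K27me3 domain touched it in any library.

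Tdgf1 (ENSMUSG00000032494, chr9:110939603-110946158, minus strand) encodes the co-receptor that Nodal needs to bind its receptors. Its promoter has 7 CpG and a GC content of 41.7%. It is printed in the same way because the highest summit fell while the peaks together covered more sequence.
Tdgf1 promoter, chr9:110946109-110946408, minus strand: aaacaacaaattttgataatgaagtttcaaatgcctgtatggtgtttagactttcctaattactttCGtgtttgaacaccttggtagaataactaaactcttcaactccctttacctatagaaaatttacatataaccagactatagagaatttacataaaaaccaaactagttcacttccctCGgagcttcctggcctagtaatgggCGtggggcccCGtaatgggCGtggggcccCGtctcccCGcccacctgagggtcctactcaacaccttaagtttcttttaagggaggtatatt

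The highest centred fold enrichment in the Tdgf1 window was 14.4, 18.6 and 16.0 in WT and 8.68, 8.61 and 13.4 in KO. In KO2 this was a peak before the start, at 8.95 uncentred, and its peak after the start had 7.85. The peak before the start had 6.65, 6.72 and 6.5 in WT and 7.46 in KO1, also uncentred, so it did not fall there. In KO3 a single peak took in both places. Every WT library was above every KO library in the highest value, which fell by 0.70 on the log2 scale (SE 0.19, limma, adjusted p = 0.016). The call was lost without WT2, KO1 or KO2, with adjusted p-values of up to 0.074. Its H3K4me3 peaks covered 3635, 3724 and 3378 bp in WT and 5402, 5731 and 5396 bp in KO. Here the KO libraries were all the higher ones, at 5510 ± 192 against 3579 ± 180 bp (SD, n = 3), 1.54 times as much (exact permutation test, p = 0.1). One stretch of 501 bp inside the gene (chr9:110941884-110942384), 3774 to 4274 bp from the start and intronic for 445 bp, was called in all 3 KO and in no WT library. A stretch of at least 200 bp of H3K4me3 called in that way was present in 10.2% of all windows with a peak, and the reverse in 2.76%, against 4 and 0 of the 10 members. The H3K27ac read density of Tdgf1 was 141, 140 and 130 in WT and 162, 152 and 150 in KO, which do not overlap, with a change of 0.18 on the log2 scale (SE 0.048, edgeR, adjusted p = 0.062). At Tdgf1 it passed with DESeq2 (adjusted p = 0.022) and among windows with calls of like length (0.14, adjusted p = 0.006), and it was 0.03 without TMM and 0.11 with 10 kb on either side. No H3K27me3 domain touched Tdgf1 in any library.

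**Figure D2:**
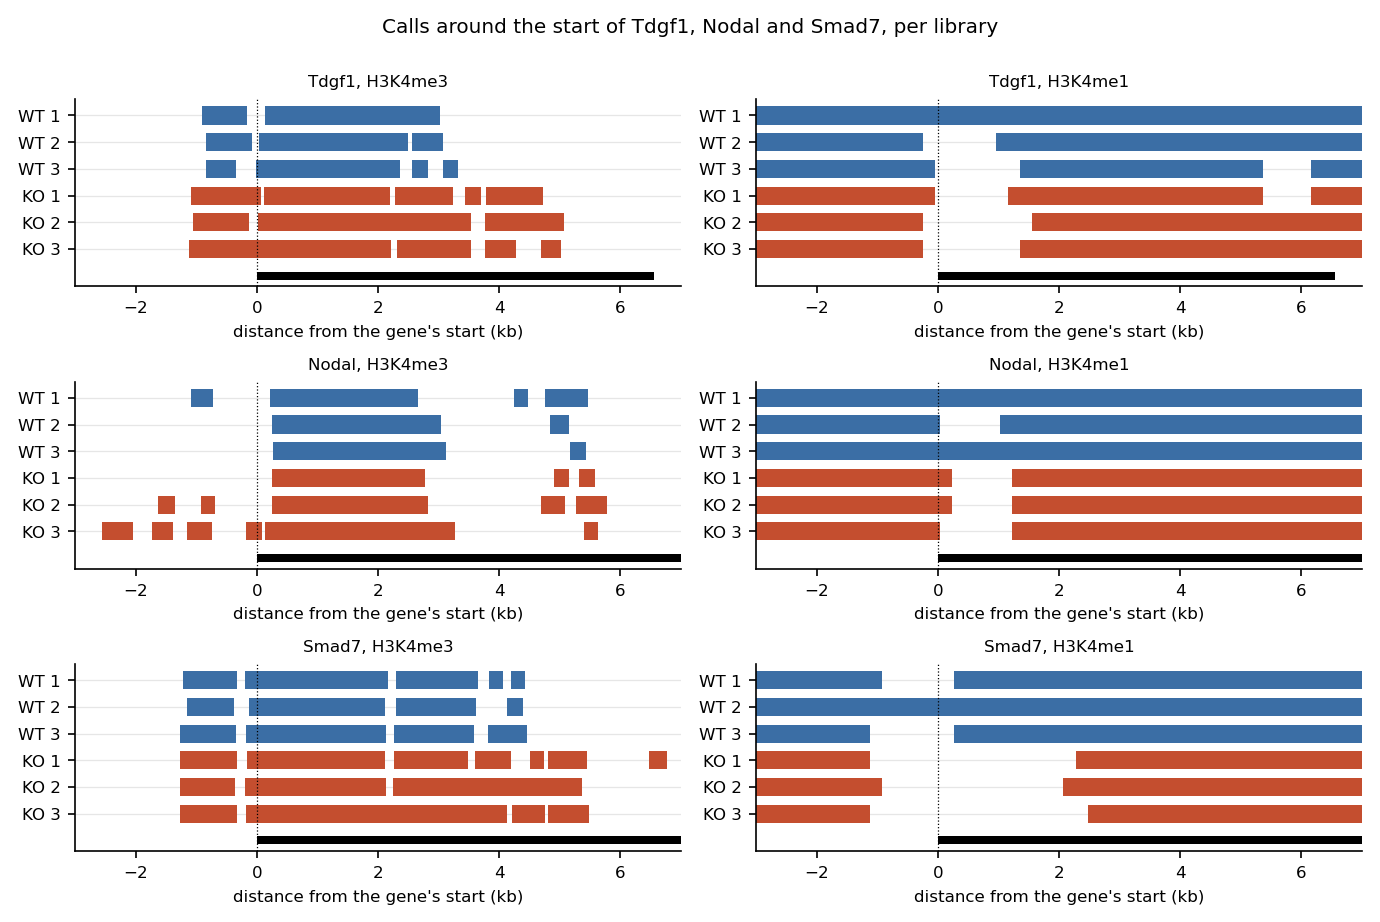
Called H3K4me3 peaks and H3K4me1 domains at Tdgf1, Nodal and Smad7 in each library (1 row per library), by distance from the gene start (kb, x axis, in the direction of transcription), with the gene as a black bar below the rows. In the KO rows the H3K4me3 calls of Tdgf1 and Smad7 fill stretches from 3774 to 4274 bp and from 4810 to 5364 bp that no WT row holds, and the H3K4me1 rows have wider gaps near the start of Smad7 in KO.

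Smad7 (ENSMUSG00000025880, chr18:75367529-75395935, plus strand) is the inhibitory Smad that both branches induce and that blocks their receptors. Its H3K4me3 peaks covered 5051, 4604 and 5451 bp in WT and 6205, 7250 and 6978 bp in KO. The groups do not overlap, with means of 5035 ± 424 and 6811 ± 542 bp (SD, n = 3), 1.35 times as much in KO (exact permutation test, p = 0.1). The added sequence included 2 stretches of 235 and 555 bp, between 4501 and 5364 bp from the start, that were called in all 3 KO and in no WT library. The fold enrichment at the Smad7 summit changed by 0.06 on the log2 scale and did not pass the test.

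H3K4me1 at Smad7 was the reverse of H3K4me3. It covered 37207, 38407 and 37007 bp in WT and 35007, 35407 and 34807 bp in KO. All KO libraries were lower, and from -2000 to 4000 bp around the start the sequence without an H3K4me1 call was 1200, 0 and 1400 bp in WT and 3400, 3000 and 3600 bp in KO. H3K27ac read density at Smad7 was 84.9, 88.8 and 79.6 in WT and 96.0, 99.7 and 91.9 in KO, also without overlap, and the change of 0.18 on the log2 scale (SE 0.049, edgeR, adjusted p = 0.058) did not pass the threshold. At Smad7 it passed with DESeq2 (adjusted p = 0.021) and with input as an offset (0.23, adjusted p = 0.012), and it was 0.04 without TMM. H3K27me3 domains in the Smad7 window covered 2735, 5935 and 735 bp in WT and 535, 1335 and 1135 bp in KO, which overlap. Within the body of Smad7 they covered 3000 bp in WT2 and 0 bp in every other library, and the rest lay beyond the end of the gene. One H3K9me3 domain touched Smad7, in WT1, and 1 touched Nodal, in WT2. No other member had an H3K9me3 domain in any library.

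Lefty1 (ENSMUSG00000038793, chr1:180935022-180938400) and Lefty2 (ENSMUSG00000066652, chr1:180893108-180899103) are secreted antagonists of Nodal that lie in the same direction 35919 bp apart. H3K4me3 in the Lefty1 window was 1578, 1505 and 1571 bp in WT and 1124, 1096 and 1120 bp in KO, the only member with less in every KO library. Most of that sequence was a peak at the start of the neighbouring gene Tmem63a, 7322 bp from the Lefty1 start. Within the body of Lefty1 itself the peaks covered 190, 455 and 218 bp in WT and 0 bp in each KO library, with 1 peak in each WT library. Those of WT1 and WT3 were weak, with q-values of 0.0105 and 0.0369 that a limit of 0.01 would drop, and that of WT2 lay elsewhere, from 994 to 1448 bp after the start. Lefty2 peaks covered 241, 0 and 394 bp in WT and 541, 367 and 447 bp in KO, which overlap.

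H3K27ac covered most of both Lefty windows in all 6 libraries, at 11779 to 12579 bp for Lefty1 and 13996 to 15196 bp for Lefty2, with log2 changes that did not pass the test. H3K4me1 at Lefty1 covered 13379, 12579 and 12579 bp in WT and 11579 bp in each KO library, an order that was lost with 2 kb on either side. The Lefty1 window carried H3K27me3 in every library, over 4400 to 5779 bp in WT and 4579 to 5600 bp in KO. Most of that sequence was a domain across the start of Tmem63a. Within the body of Lefty1 the domains covered 1379 bp in each WT library and 1379, 1579 and 1579 bp in KO. Lefty2 had a single H3K27me3 domain, of 4200 bp in WT2.

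Bmp4 (ENSMUSG00000021835, chr14:46383520-46390669, minus strand) is the BMP ligand that, with LIF, keeps embryonic stem cells self-renewing and later drives mesoderm. Its promoter, with 12 CpG in capitals and a GC content of 64.0%, stands beside the place where the genotypes differed.
Bmp4 promoter, chr14:46390620-46390919, minus strand: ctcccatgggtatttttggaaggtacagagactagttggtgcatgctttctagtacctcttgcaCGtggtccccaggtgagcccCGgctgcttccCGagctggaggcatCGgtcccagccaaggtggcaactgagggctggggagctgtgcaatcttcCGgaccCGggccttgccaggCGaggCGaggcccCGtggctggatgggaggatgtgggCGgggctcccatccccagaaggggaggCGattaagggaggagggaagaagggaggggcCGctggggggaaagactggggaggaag

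H3K27me3 domains in the Bmp4 window covered 1400, 2600 and 2800 bp in WT1 to WT3 and 0 bp in KO1, KO2 and KO3. The domains of WT1 and WT2 began 469 bp after the start, and that of WT3 ran from -731 to 2068 bp and so took in the promoter printed above. The stretch shared by all 3 WT libraries was chr14:46388801-46390200. These domains held 62, 74 and 103 ChIP reads. The lists give no reads outside calls, so the reads of the KO libraries at this place are not known. A domain in 3 of 3 WT and 0 of 3 KO libraries was present in 1.1% of 13437 windows with H3K27me3. A WT-only stretch of at least 200 bp was present in 14.1% of them and a KO-only one in 18.8%, against 2 and 2 of the 8 members with an H3K27me3 domain.

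H3K4me3 peaks at Bmp4 covered 0, 483 and 264 bp in WT and 893, 1906 and 2086 bp in KO. WT1 had no peak at all, and the lowest KO library was above the highest WT library, at 1628 ± 643 against 249 ± 242 bp (SD, n = 3), 6.54 times as much (exact permutation test, p = 0.1). Because WT1 had none, the fold enrichment of Bmp4 was not tested. Its highest value was 6.2 in WT2 and 4.81 in WT3, and 4.74, 6.53 and 6.95 in KO1 to KO3, which overlap. The median peak of a whole H3K4me3 list had 6.63 to 7.71. The difference at Bmp4 was thus one of called sequence and not of peak height. Each KO library had a peak just after the start, from 144 to 429 bp in KO1, 216 to 878 bp in KO2 and 251 to 798 bp in KO3, where no WT library had one. A peak about 3 kb into the gene was called in 5 of the 6 libraries.

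A further H3K4me3 stretch of 284 bp, from 4509 to 4792 bp after the start of Bmp4, was called in all 3 KO and in no WT library. It overlaps 211 coding bases, 66 intronic bases and 7 untranslated bases, holds 19 CpG and is printed because it separates the genotypes.
Bmp4 stretch, chr14:46385877-46386160, minus strand: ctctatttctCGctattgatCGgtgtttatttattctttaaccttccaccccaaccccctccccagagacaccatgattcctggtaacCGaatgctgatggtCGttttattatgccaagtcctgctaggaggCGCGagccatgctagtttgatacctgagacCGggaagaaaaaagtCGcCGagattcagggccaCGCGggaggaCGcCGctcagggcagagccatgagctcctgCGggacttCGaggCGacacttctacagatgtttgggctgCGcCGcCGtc

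H3K4me1 at Bmp4 covered 15800, 15069 and 14800 bp in WT and 12800, 11069 and 12869 bp in KO, without overlap. The region from -1000 to 6000 bp around the start holds the H3K4me3 peaks of the KO libraries. Its sequence without an H3K4me1 call was 0, 1200 and 800 bp in WT and 2400, 5800 and 4000 bp in KO. Not all of those peaks lay in these gaps. The KO1 peak from 144 to 429 bp and the KO3 peak from 4466 to 4871 bp lay within H3K4me1 domains. Read density in the remaining domains was 58.7, 61.6 and 59.2 in WT and 50.5, 52.5 and 52.6 in KO, a change of -0.21 on the log2 scale (SE 0.058, edgeR, adjusted p = 0.059). At Bmp4 it passed with 10 kb on either side (-0.23, adjusted p = 0.020). H3K27ac covered 10600 to 11800 bp in WT and 9000 to 15469 bp in KO, which overlap. The end of the Bmp4 window also holds the gene Gm15217, which begins 11255 bp from the Bmp4 start and runs on the other strand.

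**Figure D3:**
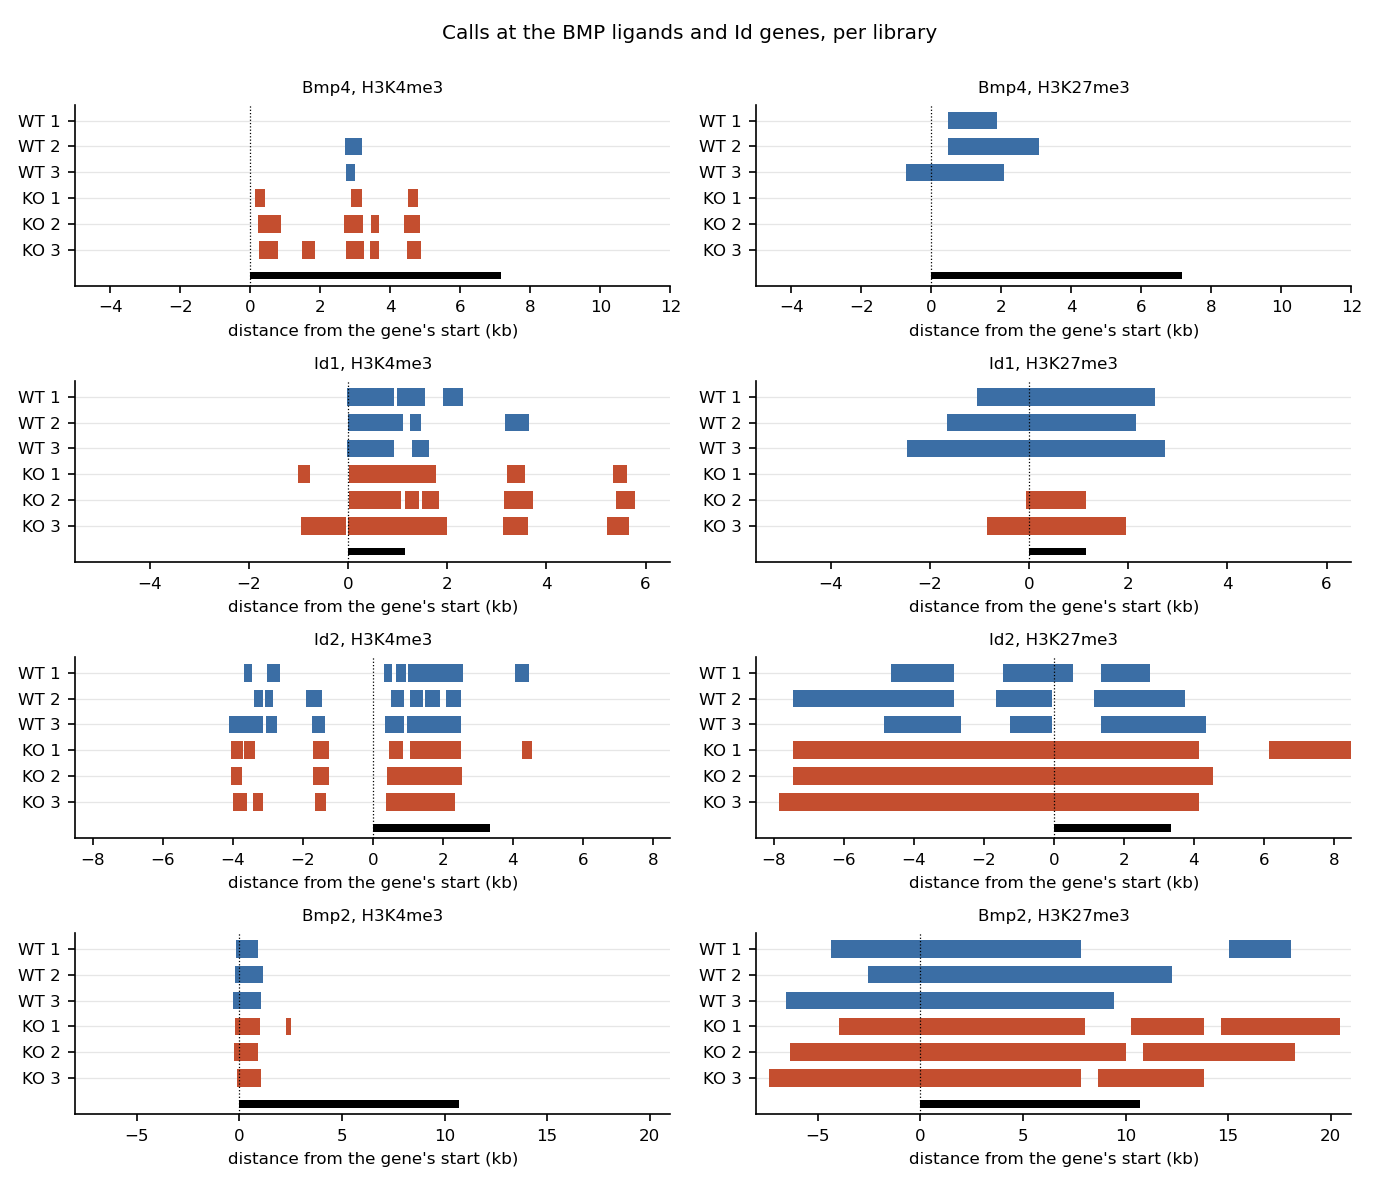
Called H3K4me3 peaks and H3K27me3 domains at Bmp4, Id1, Id2 and Bmp2 in each library (1 row per library), by distance from the gene start (kb, x axis, in the direction of transcription), with the gene as a black bar below the rows. Only calls that touch the window are drawn. The H3K27me3 rows of Bmp4 are empty in KO. At Id2 each WT row holds 3 separate domains, and each KO row holds 1 long domain across the gene.

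Bmp2 (ENSMUSG00000027358, chr2:133552159-133562885, plus strand), a second BMP ligand, carried H3K27me3 in every library. Its domains covered 12885, 14800 and 14442 bp in WT and 16685, 19927 and 18042 bp in KO, 1.30 times as much and without overlap (exact permutation test, p = 0.1), though not with 2 kb on either side. A stretch of 1600 bp beyond the end of the gene (chr2:133564401-133566000) was called in all 3 KO and in no WT library. Over these longer domains the read density was lower, at 58.3, 68.6 and 66.0 in WT and 50.8, 47.4 and 54.6 in KO. The groups do not overlap, but the change of -0.34 on the log2 scale (SE 0.088, edgeR, adjusted p = 0.11) did not pass the threshold. Input reads at Bmp2 went the other way, with a KO over WT ratio 0.16 above the median gene on the log2 scale. The change passed with input as an offset (-0.50, edgeR, adjusted p = 0.020), without TMM (-0.48, 0.020) and with DESeq2 (adjusted p = 0.026). Reads in the called domains from -8000 to 21000 bp were not fewer in KO, at 918, 998 and 1156 in WT and 1080, 1162 and 1161 in KO. The domain over the start had a fold enrichment of 4.32, 5.23 and 4.69 in WT and 4.48, 4.45 and 4.20 in KO, which overlap. Domains beyond it were weaker, at 1.74 in WT1 and 1.54 to 1.82 in KO. H3K4me3 at Bmp2 overlapped between the genotypes, at 1068 to 1367 bp in WT and 1175 to 1500 bp in KO. H3K27ac was called over 3000, 1400 and 1600 bp in WT and over 0, 3000 and 0 bp in KO.

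Id1 (ENSMUSG00000042745, chr2:152736251-152737410, plus strand), Id2 and Id3 encode inhibitors of helix-loop-helix factors and are direct targets of BMP signalling. H3K4me3 peaks at Id1 covered 1916, 1807 and 1284 bp in WT and 2651, 2654 and 3838 bp in KO, 1.83 times as much and without overlap (exact permutation test, p = 0.1). The centred summit was 7.62, 7.82 and 10.7 in WT and 14.1, 12.5 and 11.3 in KO. Every KO library was the higher, and the change of 0.55 on the log2 scale (SE 0.20, limma, adjusted p = 0.053) did not pass the threshold. It passed without centring (0.63, adjusted p = 0.047) and without WT3 (0.70, adjusted p = 0.030), and as a mean over the peaks weighted by length it was 0.30 (adjusted p = 0.37). H3K27me3 at Id1 covered 3600, 3800 and 5200 bp in WT and 0, 1200 and 2800 bp in KO, so the groups were apart in the other direction. With 2 kb on either side in place of 5 kb, or with the same number of top-ranked calls from each library, the H3K4me3 sequence of the groups overlapped.

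The H3K4me3 stretch at Id1 called in all 3 KO and in no WT library was 229 bp long. It lies outside the gene, 5397 to 5625 bp from the start, with 3 CpG, and is printed beside the stretch of Bmp4 to show how far both differ in CpG content.
Id1 stretch, chr2:152741648-152741876, plus strand: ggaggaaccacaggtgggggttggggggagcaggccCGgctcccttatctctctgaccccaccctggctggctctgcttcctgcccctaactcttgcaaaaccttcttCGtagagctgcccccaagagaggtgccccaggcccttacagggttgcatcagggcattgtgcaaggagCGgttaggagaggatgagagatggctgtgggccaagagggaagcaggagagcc

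Id2 (ENSMUSG00000020644, chr12:25093799-25097140, minus strand) differed from Id1 in the direction of H3K27me3. Its RefSeq start lies 1048 bp inside the GENCODE gene, and the promoter around it holds 21 CpG, more than those of Nodal, Tdgf1 or Bmp4. It is printed because it lies wholly within a stretch of 600 bp (chr12:25096001-25096600) that carried H3K27me3 in all 3 KO and in no WT library.
Id2 promoter, chr12:25096043-25096342, minus strand: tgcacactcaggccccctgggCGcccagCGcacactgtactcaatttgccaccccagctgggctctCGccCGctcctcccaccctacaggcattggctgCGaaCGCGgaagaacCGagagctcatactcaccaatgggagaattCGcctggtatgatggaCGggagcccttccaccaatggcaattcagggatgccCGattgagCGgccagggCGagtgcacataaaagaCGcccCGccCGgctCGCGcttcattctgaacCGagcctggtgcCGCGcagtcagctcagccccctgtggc

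H3K27me3 at Id2 covered 5200, 6340 and 6400 bp in WT and 11342, 9540 and 9140 bp in KO, 1.67 times as much (exact permutation test, p = 0.1). A further stretch of 1000 bp before the start was called in the KO libraries alone. In the window each WT library had 3 separate domains, while KO2 and KO3 had 1 and KO1 had 2. Before the window WT3 had a further domain of 8000 bp. Counted in proportion to the overlap, the window held 225, 243 and 261 ChIP reads in called domains in WT and 505, 460 and 433 in KO. The read density within the domains was 36.5 to 41.7 in WT and 42.4 to 48.5 in KO, and its change of 0.20 on the log2 scale did not pass the test (edgeR, adjusted p = 0.36). The added reads thus came with added called sequence. H3K27me3 sequence was higher in every KO library in 10.9% of windows with a domain and lower in 7.61%. Of the 8 members with a domain, 2 were higher (Id2, Bmp2) and 2 lower (Bmp4, Id1). A change of H3K27me3 read density passed in 1.57% of 9733 windows and by edgeR in 0 of the 5 members tested, of which 1 had an unadjusted p below 0.05, while DESeq2 called 1.

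H3K27ac read density at Id2 was 77.2, 62.2 and 67.8 in WT and 48.8, 55.7 and 54.8 in KO. All KO libraries were lower, and the value fell by 0.38 on the log2 scale (SE 0.092, edgeR, adjusted p = 0.043). It was the one H3K27ac change past the threshold among the 9 members tested, where 9.33% of 14625 windows passed. The call was lost without any one library but WT2, with adjusted p-values of up to 0.13, and with input as an offset (adjusted p = 0.079). H3K27ac sequence was apart between the genotypes at 0 members, where 21.6% of 16607 windows were higher in every KO library and 8.2% lower. In WT it already covered 91.0% to 100% of the windows of Nodal, Tdgf1, Lefty1, Lefty2, Smad7 and Id1, so it could rise little there. H3K4me1 at Id2 covered 12542 bp in each WT library and 10140, 10140 and 11142 bp in KO. H3K4me3 at Id2 overlapped, at 2565 to 3767 bp in WT and 2914 to 3199 bp in KO.

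Id3 (ENSMUSG00000007872, chr4:136143497-136145755, plus strand), with 19 CpG in its RefSeq promoter, had more sequence under H3K4me3 peaks in KO and H3K27me3 that overlapped between the genotypes. Its peaks covered 2104, 1668 and 1962 bp in WT and 2547, 3328 and 2829 bp in KO, 1.52 times as much and without overlap (exact permutation test, p = 0.1). The peak nearest the Id3 start was 1425, 1668 and 1490 bp wide in WT and 1344, 2399 and 1655 bp in KO, which overlap. The fold enrichment changed by 0.19 on the log2 scale (limma, adjusted p = 0.49). H3K27me3 covered 8459, 9459 and 10059 bp in WT and 8459, 8659 and 9459 bp in KO, and its read density was 72.3 to 78.6 in WT and 72.7 to 76.7 in KO. With 2 kb on either side the H3K4me3 sequence of the groups overlapped at Id3 as well.

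**Figure D4:**
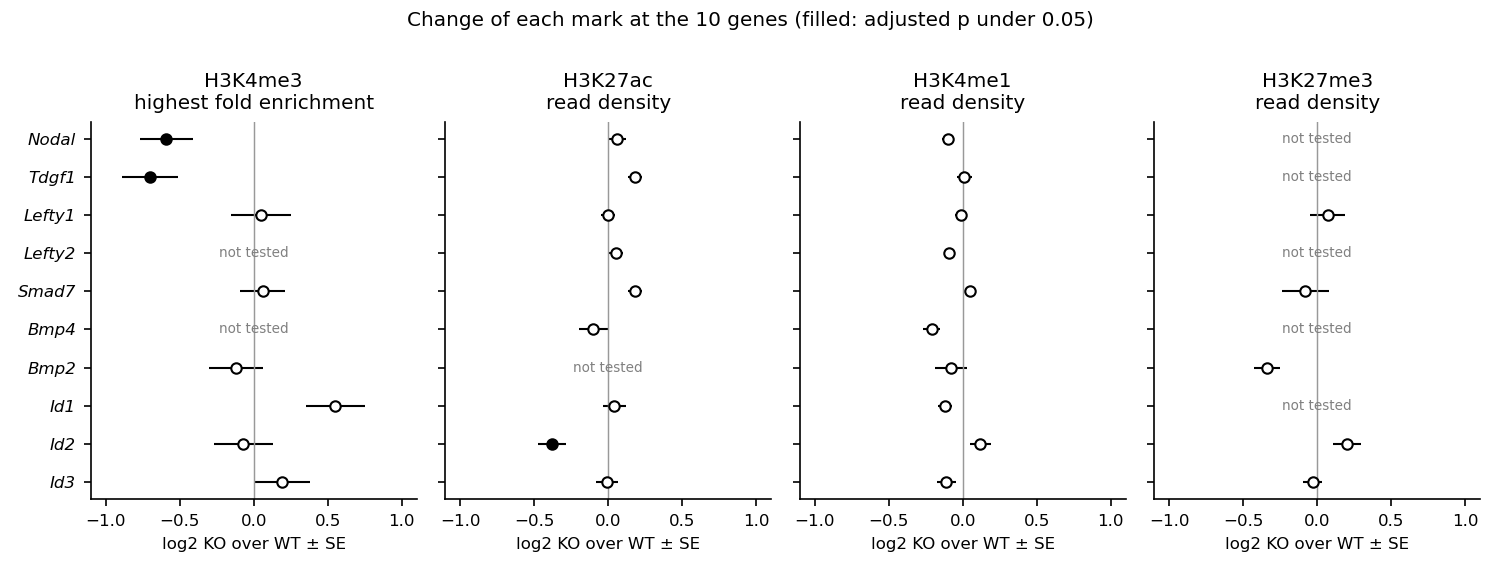
Change of signal between genotypes (log2 KO over WT, x axis) for each gene and mark that could be tested, with bars of 1 SE and filled points where the adjusted p was below 0.05. The filled points are H3K4me3 at Nodal and Tdgf1 and H3K27ac at Id2, all 3 below 0.

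H3K4me1 sequence was lower in every KO than in every WT library at 4 members, Bmp4, Smad7, Id2 and Lefty1, where 15.4% of 17552 windows were lower and 11.7% higher. The median difference of all windows was itself -245 bp, and at the 4 members the mean differences ran from -2977 to -1267 bp. A change of H3K4me1 read density passed in 8.27% of 16679 windows and by edgeR in 0 of the 10 members, 4 of which had an unadjusted p below 0.05, and DESeq2 called 0.

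Sequence under both H3K4me3 and H3K27me3, each taken where at least 2 of the 3 libraries of a genotype had a call, was found in 5 windows. In the windows of Lefty1 and Bmp2 all of the H3K4me3 sequence lay within H3K27me3 in both genotypes, but at Lefty1 that sequence was mostly, and in KO wholly, the peak at the Tmem63a start. At Id1 it was 100% of 1393 bp in WT and 40.5% of 2812 bp in KO. At Id2 it was 59.3% in WT and 100% in KO, and at Id3 87.2% and 79.2%. At Nodal, Tdgf1, Lefty2, Smad7 and Bmp4 it was 0 in both genotypes. Id1 and Id2 thus moved in opposite directions, and no test was made of that share since it joins the libraries.

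**Figure D5:**
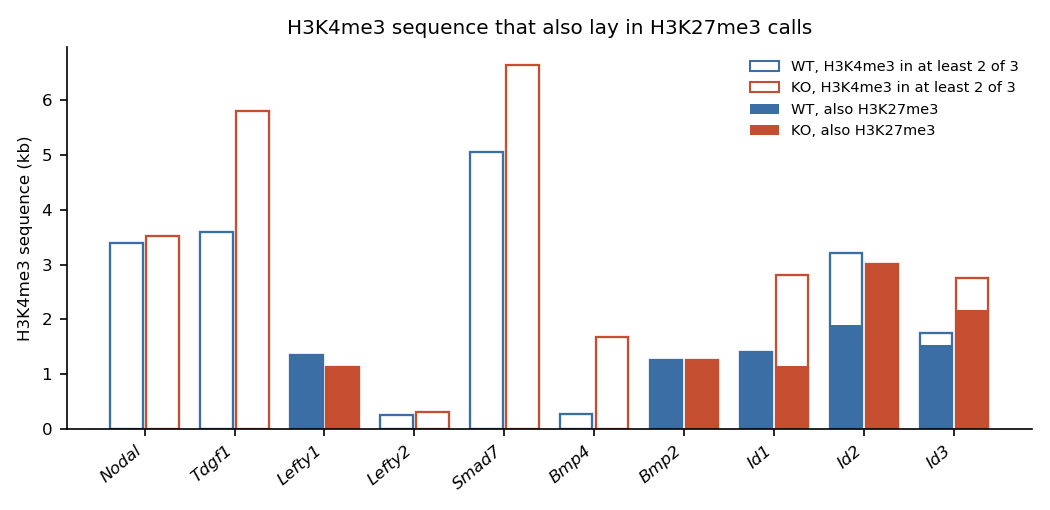
H3K4me3 sequence (kb, y axis, from 0) called in at least 2 of the 3 libraries of a genotype at each gene (x axis), as open bars for WT and KO, with the filled part lying also in H3K27me3 called in at least 2 of 3. The WT bar of Id1 is filled along its 1393 bp and the KO bar over 1138 of 2812 bp, while at Id2 the KO bar is the one that is wholly filled.

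Letters known as binding motifs were searched in the 5 member promoters present in the RefSeq promoter set used here, those of Nodal, Tdgf1, Bmp4, Id2 and Id3, on both strands. The FoxH1 motif AATNCACA, the Smad palindrome GTCTAGAC and the TATA box TATAAA had no match in any of the 5. They were present in 3.6%, 0.213% and 13.6% of all promoters of this length. The GC-rich Smad element GGCGCC had 1 match, in Id2, and was present in 11.9%. A match is a run of letters and not a bound site.

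The rest of the pathway was read from 54 further genes in lists of ligands, receptors, Smads and partners, inhibitors and targets. For H3K4me3, 2 of the 47 tested rose in KO and 4 fell, where 1348 and 1451 of all 13533 windows did, 20.7% together. Skil, which represses Smad signalling, fell by 1.37 on the log2 scale (limma, adjusted p = 0.00019), from 21.8, 17.5 and 18.1 in WT to 8.78, 6.11 and 7.52 in KO. Lhx1, a Nodal target, and the ligand Tgfb3 fell by 0.66 and 0.65, and the Nodal receptor gene Acvr1b rose by 0.68.

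Inhbb, which encodes a subunit of activin B, changed in 4 marks. Its H3K4me3 summit was 6.27, 8.58 and 7.71 in WT and 14.6, 12.5 and 11.2 in KO, a rise of 0.77 on the log2 scale (limma, adjusted p = 0.011). Its H3K27ac rose by 0.62 (edgeR, adjusted p = 0.00091) and its H3K27me3 density fell by 0.89, from 85.7, 60.1 and 90.4 to 43.9, 38.2 and 45.3 (edgeR, adjusted p = 0.021). It was the 1 gene of the 42 tested whose H3K27me3 density passed, where 153 of all 9733 windows did.

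For H3K27ac, 4 of the 47 genes tested rose and 2 fell, where 1020 and 345 of all 14625 windows did. Dand5, a Nodal antagonist, rose by 1.20, but the input at Dand5 was also higher in KO, by 0.64, and with input as an offset the rise was 0.57. Gdf1, a partner ligand of Nodal, rose by 0.44, and with input as an offset the value was -0.07. Smad5 and Smurf2 fell by 0.37 and 0.23, and with input as an offset both values were -0.18, with adjusted p-values of 0.28 for Smad5 and 0.036 for Smurf2 (edgeR). For H3K4me1, 6 of 53 rose, where 937 of all 16679 windows did. Smad1, Gdf1 and Dand5 rose by 0.48, 0.35 and 0.33, with input that was higher in KO by 0.66, 0.47 and 0.51. With input as an offset each turned to a lower value (-0.18, -0.11 and -0.18). These genes all lie on chromosome 8, from 79338395, 70329817 and 84815405 bp. Whether their input rose as a single region was not tested. Bmpr2, a receptor gene, had an H3K27me3 domain in 3 of 3 WT and 0 of 3 KO libraries. It was 1 of the 50 pathway windows with H3K27me3, where 1.1% of all 13437 such windows had that pattern. At the 10 members the input log2 ratio of KO to WT lay between -0.15 and 0.24 after taking off that of the median gene.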

How the data were processed

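ChIP-seq region lists of 30 libraries were used, 5 marks in 3 IκBα-WT and 3 IκBα-KO clones. The 8 input samples were not used as files of their own. Per the labels and methods, the authors trimmed reads with Trim Galore 0.6.6, aligned them with Bowtie2 2.4.4 to GRCm38 (H3K4me3, H3K27me3 and H3K4me1), dropped low-quality, multiply mapped and blacklisted reads, marked duplicates with SAMtools 1.15 and called regions per library at a false discovery rate below 0.05, with MACS2 2.2.7.1 for H3K4me3 and epic2 0.0.52 for the broad marks. Reads of a Drosophila spike-in were set aside for H3K27me3. The aligner of H3K27ac and the treatment of H3K9me3 are not given in the sources used here. The labels give 1 antibody for both H3K27ac and H3K4me1, while the methods name another for H3K27ac. The deposited epic2 domains give ChIP and input read counts, an FDR p-value and a score, and the deposited MACS2 peaks give a summit fold enrichment (a ratio to input) and a −log10 q-value. No read outside a call is counted, so an uncalled region has no known depth, and merging or splitting of domains changes both covered sequence and density.

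Calls were joined to gene windows by any overlap. Read counts of whole domains that touch a window were fitted with edgeR 4.0.16 (quasi-likelihood, TMM scaling, called length as offset) where all 6 libraries had a call, and log2 fold enrichment with limma 3.58.1, in all windows, and p-values were adjusted over all of them. Fits were tested on simulated data. DESeq2 1.42.0, other scalings, input as an offset, stricter calls, windows of 2 and 10 kb and leaving out each library were alternatives. Python 3.11.15, pandas 2.3.3, scipy 1.17.1 and R 4.3.3 were used. Members and lists were chosen with earlier results of these data known. All 10 members are named, and of the other pathway genes up to 3 a mark and direction, by largest change among those past the threshold whose groups do not overlap. One such result is not reported here. Tests of stretches of at least 200 bp, of sequence under both marks and of H3K4me1 gaps were not made; those descriptions were chosen after seeing the data. Promoters came from a set of RefSeq promoters (GRCm38.p6), and the set used here had an entry for 5 of the 10 genes. Lefty1, Lefty2, Smad7, Bmp2 and Id1 are named without a promoter. All read counts carry counting error only within a library.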

Additional observations from a re-analysis of the deposited data

How the results depend on the processing

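The 3 member changes that passed kept their sign under every alternative run, and apart from leaving out a library they lay between -0.66 and -0.50 (Nodal H3K4me3), -0.70 and -0.61 (Tdgf1 H3K4me3) and -0.52 and -0.30 (Id2 H3K27ac) on the log2 scale. Without 1 library they lay between -0.72 and -0.38, -0.91 and -0.59, and -0.45 and -0.30. Replicate numbers did not pair the clones, since deviations of same-numbered libraries correlated at -0.02 to 0.03, and with the replicate block H3K27ac passed in 795 windows, H3K27me3 in 96 and H3K9me3 in 9, against 1365, 153 and 67, and the adjusted p of H3K27ac was 0.11 at Id2 and 0.039 at Smad7. With DESeq2, H3K27me3 passed in 343 windows and H3K9me3 in 136, with 3 members for H3K27ac and 1 for H3K27me3. Without TMM, H3K27ac passed in 4513 windows and H3K27me3 in 379, with 2 and 1 members. The median of all windows then moved by -0.15 and -0.14, and the share of calls higher in KO went from 74.7% to 10.5% and from 66.7% to 9.23%. Without centring, that share for H3K4me3 went from 48.2% to 66.0%. With windows whose calls were of like length, H3K27ac passed in 615, H3K27me3 in 231 and H3K9me3 in 28. With input as an offset, H3K4me1 passed in 2764 windows, H3K27me3 in 620 and H3K9me3 in 789, with 3 members for H3K4me1 and 1 for H3K27me3. The share of H3K4me1 calls higher in KO then went from 67.9% to 45.0%, and Gdf1 H3K27ac (-0.07) and H3K4me1 at Smad1 (-0.18), Gdf1 (-0.11) and Dand5 (-0.18) turned. With 10 kb on either side, 1 member passed for H3K4me1 and 1 was apart in H3K27ac sequence. Leaving out 1 library gave 806 to 930 windows for H3K27ac, 67 to 171 for H3K27me3 and 4 to 48 for H3K9me3, 0 to 2 members past the threshold for H3K4me3, 0 to 1 for H3K27ac and 0 to 2 apart in H3K27ac sequence. The cause was not tested for any of these, beside fewer windows or libraries where the alternative has them. Depth is known only inside calls, so a missing domain is a call below the threshold, not an absence of the mark.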
